A study of Mus musculus with 157 samples.

Results

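The 868 chromatin regions described here were those that the study's authors listed as losing H3K4me3 in mouse bone marrow-derived macrophages exposed to monosodium urate crystals (MSUc), the crystals of gout. They were all the rows of 1 of the 2 deposited H3K4me3 lists, which hold 2036 regions in all, the other 1168 being regions that gained the mark. Each region was a window of 2000 bp placed on an accessible site, chosen by the authors' log2 change of normalised H3K4me3 tags between MSUc and PBS and by its adjusted p-value. Every H3K4me3 value below is therefore a description and was not tested.

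H3K4me3 was measured by ChIP-seq at 5 hours in 2 libraries of PBS-treated and 2 of MSUc-treated wild-type macrophages, whose column headers name Mouse1 and Mouse2. RNA sequencing of 115 libraries in 8 separate experiments gave the expression of the nearest genes. Cells were grown from bone marrow, with M-CSF wherever the labels describe the culture, which they do not for Tfe3KO mice. Particles were given at 250 ug/mL, with PBS as the control. The wild-type experiments were a time course (PBS or MSUc for 10 or 30 minutes and 1, 2 or 5 hours, 2 libraries a group) and a comparison of PBS, MSUc, CPPD (calcium pyrophosphate dihydrate crystals), silica and alum (2 or 3 libraries a group).

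The perturbed groups were Tfe3KO, Tfeb-Tg (a Tfeb transgene whose promoter is not given in the labels), Bhlhe40-/- (B40KO), Bhlhe41-/- (B41KO) and Ampka1KO macrophages, each with PBS or MSUc and with its own wild-type cells, and wild-type cells with SGC0946 or metformin. SGC0946, an inhibitor of the H3K79 methyltransferase DOT1L, was present at 1 uM from the first day of culture, and metformin, which activates AMPK, was added after the cells were re-plated, at a dose not given in the labels. M-CSF was at 5 ng/mL in RPMI medium for Ampka1KO cells and their wild-type, from mice of 7 to 8 weeks, and at 16 ng/mL in DMEM for the other mice whose culture is described. Other ages, and exposure times outside the time course, were not given in the labels. Libraries titled Tfe3WT have Tfe3KO in their genotype field and were taken as wild-type by title.

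Macrophage markers summed to 8546 TPM or more in each RNA library, and B cell, T or NK cell and erythroid markers to at most 6.84 TPM, mast cell, endothelial and dendritic cell markers to at most 39.6 TPM, neutrophil markers to 1.57 to 1572 TPM and fibroblast markers to 1.71 to 2979.5 TPM. TPM is the level of a transcript per length, scaled to the library. RNA libraries held an estimated 2.10 to 21.99 M reads over the transcripts kept, worked out from the steps of the deposited values taken as TPM. The 4 ChIP libraries held 7.66 to 10.4 M tags by their column headers. Bhlhe40 was at 5.59 to 6.93 TPM in B40KO with PBS against 57.8 to 76.1 TPM in their wild-type, and Tfe3 at 66.7 to 70.0 TPM in Tfe3KO against 94.2 to 104 TPM. With MSUc Tfe3 was at 84.9 to 87.3 TPM in the libraries labelled Tfe3KO against 79.7 to 83.3 TPM. With CPPD it was at 85.4 to 97.7 against 98.4 to 108 TPM, and with silica at 31.1 to 43.2 against 52.3 to 57.8 TPM. The transcript was thus lower with PBS, CPPD and silica but higher with MSUc, so it gives no clear check of that label. Tfeb was at 75.1 to 86.5 TPM in the transgenic cells with PBS against 43.7 to 44.4 TPM. Bhlhe41 in the libraries labelled B41KO was at 46.3 to 49.8 TPM with PBS against 49.8 to 55.9 TPM in wild-type, and at 49.5 to 50.3 against 90.1 to 94.9 TPM with MSUc. Prkaa1, which encodes AMPK alpha 1, was at 24.3 to 27.3 TPM with PBS in the libraries labelled Ampka1KO against 23.1 to 25.4 TPM, so it gives no check of that label.

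H3K4me3 is a methyl mark on the tail of histone H3 that marks the start sites of active genes and some strong enhancers. It is written by the SET1 and MLL methyltransferase complexes, read by PHD-finger proteins such as the ING family and TAF3, and removed by KDM5 demethylases. In macrophages it lies over the promoters of genes that the cells express at rest as well as over those switched on by stimulation.

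The start sites of the genes on which the results turn differed in sequence, which is why 6 of them are shown. Each is the 250 bases before the annotated start, 5′ to 3′ on the gene's strand, from RefSeq on GRCm38.p6 (mm10), and lies inside a listed region. Capitals mark CG dinucleotides. C1qc lies at chr4:136892915-136893164 (minus strand), Rassf2 at chr2:132030325-132030574 (minus), Mxd4 at chr5:34187711-34187960 (minus), Pald1 at chr10:61383340-61383589 (minus), Sesn1 at chr10:41887189-41887438 (plus) and Ypel3 at chr7:126776713-126776962 (plus).
C1qc: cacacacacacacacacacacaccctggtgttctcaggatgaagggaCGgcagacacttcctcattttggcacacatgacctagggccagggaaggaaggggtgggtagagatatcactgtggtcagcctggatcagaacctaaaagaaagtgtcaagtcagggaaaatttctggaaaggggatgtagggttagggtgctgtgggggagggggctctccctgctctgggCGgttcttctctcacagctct
Rassf2: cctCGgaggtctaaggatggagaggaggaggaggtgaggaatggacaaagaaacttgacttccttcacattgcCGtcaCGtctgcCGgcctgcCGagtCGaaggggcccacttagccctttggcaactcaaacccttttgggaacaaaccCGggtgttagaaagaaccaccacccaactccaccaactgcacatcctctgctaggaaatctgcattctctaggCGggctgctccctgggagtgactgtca
Mxd4: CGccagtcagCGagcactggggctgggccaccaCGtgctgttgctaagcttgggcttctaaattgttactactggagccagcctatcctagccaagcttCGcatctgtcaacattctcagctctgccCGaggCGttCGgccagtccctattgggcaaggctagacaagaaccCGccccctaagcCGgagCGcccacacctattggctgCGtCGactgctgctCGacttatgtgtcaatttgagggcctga
Pald1: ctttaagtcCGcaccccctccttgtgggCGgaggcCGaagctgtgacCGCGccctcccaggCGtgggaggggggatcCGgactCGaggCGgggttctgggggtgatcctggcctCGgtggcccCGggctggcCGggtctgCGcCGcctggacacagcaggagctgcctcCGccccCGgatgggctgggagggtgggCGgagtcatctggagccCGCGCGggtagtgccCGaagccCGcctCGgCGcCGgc
Sesn1: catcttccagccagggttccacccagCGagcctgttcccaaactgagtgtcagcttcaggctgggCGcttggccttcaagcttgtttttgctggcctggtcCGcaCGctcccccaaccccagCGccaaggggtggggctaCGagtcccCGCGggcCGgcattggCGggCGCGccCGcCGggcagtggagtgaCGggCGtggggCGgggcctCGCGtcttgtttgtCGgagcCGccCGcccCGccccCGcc
Ypel3: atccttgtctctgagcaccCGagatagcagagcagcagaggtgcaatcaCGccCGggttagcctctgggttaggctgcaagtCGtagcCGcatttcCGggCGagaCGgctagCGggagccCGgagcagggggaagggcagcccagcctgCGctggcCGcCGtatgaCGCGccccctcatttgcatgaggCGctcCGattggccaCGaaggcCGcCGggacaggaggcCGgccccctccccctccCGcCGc

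C1qc held 2 CG dinucleotides and Rassf2 8, against 13 in Mxd4, 25 in Pald1, 24 in Sesn1 and 23 in Ypel3. In C1qc the letters ACTTCCTC, the other strand of the PU.1 core GAGGAAGT, begin 195 bases before the start, and the GC box GGGCGG 24 bases before it. Mxd4 has the E-box CACGTG beginning 219 bases before its start, Pald1 has 3 GC boxes and Sesn1 4. These are letter matches and not measured sites.

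Of the 511 nearest genes, 376 had a promoter in the RefSeq table, a stretch of 300 bases with 250 before the start and 50 after it. Whole promoters of 230 genes, 265 in number, lay inside listed regions, and they covered 171 of the 250 genes with a region within 1 kb of the start, 68.4%, too few to describe all of these start sites. Searched on both strands, GGGCGG stood in 59.6% of the 265 promoters, in 59.6% of the 109 promoters inside regions that gained H3K4me3, and in 35.7% of all 32851 RefSeq promoters. The cyclic AMP response element TGACGTCA stood in 0.755%, 8.26% and 1.79%, the AP-1 site TGANTCA in 5.66%, 11.0% and 7.81%, and the PU.1 core in 4.91%, 2.75% and 3.20%. The median number of CG dinucleotides was 19, 14 and 7. These shares describe letters in the promoters, and no test was made of them.

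The losing regions sat closer to gene starts than the gaining ones. Of the 868, 364 (41.9%) had their centre within 1 kb of the nearest start site, 282 (32.5%) lay 1 to 10 kb away and 222 (25.6%) over 10 kb. For the 1168 gaining regions the shares were 10.6%, 27.1% and 62.3%. The authors' annotation placed 284 losing regions in introns, 271 at promoters, 235 between genes, 25 at transcript ends, 19 in 5′ UTRs, 17 in exons and 11 in 3′ UTRs. Neighbouring windows overlapped, and merged they made 554 loci, of which 226 held 2 or more windows and the longest spanned 8480 bp. The regions are thus not independent of each other. By gene, 281 of the 511 had 1 region and 230 had 2 or more, and 23 regions lay at 15 histone genes.

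These regions started from a higher level of the mark than the gaining ones, which the opposite choice of the 2 lists made likely. The median over the 868 regions was 98.1 and 100.1 normalised tags in the PBS libraries and 40.95 and 41.7 in the MSUc libraries, while gaining regions started at 28.2 and 29.5 and reached 85.6 and 77.4. The authors' log2 change ran from -2.57 to -1.0 with a median of -1.28, and their adjusted p reached 0.0498 at most. The 868 were 2.77% of the 31313 regions that the authors' adjusted p-values imply were tested. By place the median change was -1.26 within 1 kb, -1.28 at 1 to 10 kb and -1.32 beyond. The choice of regions bounded all these changes at -1.0, so the medians cannot tell whether the loss differed with distance. Past a log2 loss of 1.5 there were 223 regions at 160 genes, and past 2 there were 31 regions at 25 genes.

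In each of the 868 regions both MSUc libraries lay below both PBS libraries, which the choice of regions made likely. The PBS libraries differed from each other by over 1.5 times in 47 regions and the MSUc libraries in 140. The value of 1 tag, 0.785 and 0.923 with PBS and 0.931 and 1.02 with MSUc, gave back whole tags in each library (within 0.15), with medians of 125, 108.5, 44 and 41 tags and as few as 5 in an MSUc library. These factors did not follow the library totals of the headers, and how the authors scaled the tags is not given in the sources used here.

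**Figure D1:**
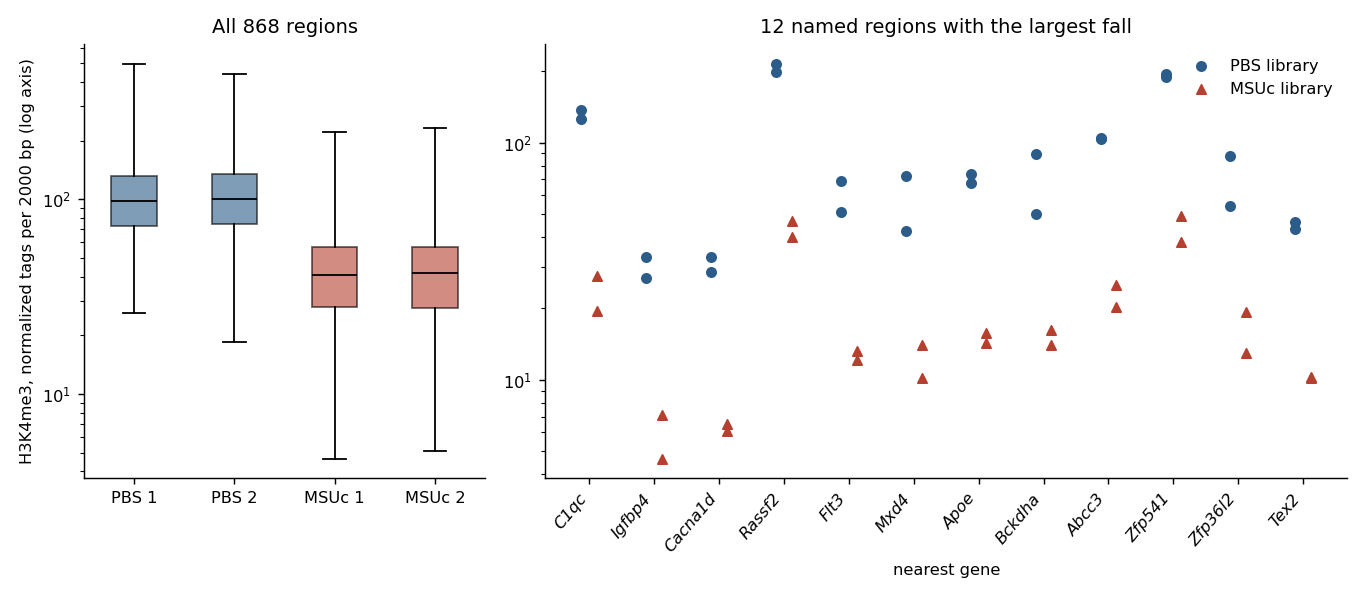
H3K4me3 in normalised tags per 2000 bp window (log axes): left, boxes (quartiles and median, whiskers to the extremes) of all 868 regions in each of the 4 libraries; right, the 12 named regions with the largest loss, each point 1 library. The PBS medians are 98.1 and 100.1 and the MSUc medians 40.95 and 41.7, and in the 12 regions all MSUc points lie below the PBS points.

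The largest loss with a name lay at the complement genes C1qa, C1qb and C1qc, 3 neighbours on chromosome 4 that encode the chains of C1q, which macrophages secrete to opsonise debris. The C1qc window, chr4:136892043-136894043, centred 129 bp before the start, had 126.3 and 137.5 tags with PBS and 19.5 and 27.5 with MSUc, a log2 change of -2.52. C1qb (chr4:136885255-136887255) had 226.7 and 234.4 against 60.5 and 49.9 tags, -2.08, and C1qa 65.1 and 68.3 against 15.8 and 20.4, -1.91. C1qa and C1qb were named after their values were seen, because they adjoin C1qc.

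Rassf2, a Ras-association protein that promotes growth arrest, had 5 regions. The window over its start, chr2:132028958-132030958, went from 197.7 and 215.1 to 40.02 and 46.8 tags (-2.27), and one 8888 bp inside the gene from 90.2 and 87.7 to 32.6 and 50.9 (-1.12). Mxd4, a partner of MAX that opposes MYC, had 72.2 and 42.5 against 13.96 and 10.2 tags at chr5:34186174-34188174 (-2.26), with PBS libraries that differed from each other. Apoe, the apolipoprotein of macrophage lipid efflux, had 73.8 and 67.4 against 15.8 and 14.3 tags at chr7:19698126-19700126 (-2.25). The transporter gene Abcc3 had 104.3 and 103.4 against 25.1 and 20.4 (-2.20), 215 bp after its start. At all 4 genes the 2000 bp window covered the start site, and its tags do not show where in the window the mark was lost.

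Other large losses lay away from the named gene's start. Cacna1d, a calcium channel gene, had 33.0 and 28.6 against 6.51 and 6.11 tags 9030 bp before a start (-2.30), and Igfbp4, which binds insulin-like growth factors, 33.0 and 26.8 against 4.65 and 7.12 at 1277 bp before it (-2.37). Flt3, the receptor of dendritic cell progenitors, had a window in an intron 37254 bp from the start with 69.0 and 50.8 against 12.1 and 13.2 tags (-2.26). A run of 7 regions lay 18965 bp and more before Zfp541, the one of largest loss with 189.9 and 193.8 against 38.2 and 48.9 tags (-2.17). Bckdha, a subunit of the branched-chain keto acid dehydrogenase (8897 bp away, -2.23), Zfp36l2 (41867 bp, 7 regions, -2.16) and Tex2 (47924 bp, -2.15) complete the 12 named regions of largest loss. Genes with Gm or Rik symbols were passed over, and 4 of them, 1110006O24Rik (-2.57), Gm12260 (-2.43), A830009L08Rik (-2.36) and Gm6607 (-2.16), had losses larger than that of Tex2. A nearest gene is the authors' annotation and no measure of contact.

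Grk2, the kinase that desensitises chemokine and other G protein-coupled receptors, had most regions, 8 over its first intron and start, with log2 changes of -1.82 to -1.23. Zfp36l2 and Zfp541 had 7 each, Apobec1, an RNA editing enzyme, 6, and Akna and Fam49b 5 each. At the other end, the regions just inside the threshold were at Ankrd10 (100.4 and 93.2 against 56.8 and 40.7 tags, -1.0), Nek9 (166.3 and 131.1 against 76.3 and 74.3, -1.0) and Lpar6 (154.6 and 125.5 against 77.2 and 64.1, -1.0). Regions just outside it are in neither list and were not analysed here.

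Loss of H3K27ac, an acetyl mark of active promoters and enhancers, was listed at many of the same windows. Of the 868 regions, 498 (57.4%) overlapped by at least 1 bp a region that the authors listed as losing H3K27ac, which was 28.0% of that list of 1838. For 430 (49.5%) the window was the same, 23.4% of that list. The authors' adjusted p-values imply that 44391 windows were tested for H3K27ac, of which 4.14% were listed as losing and 4.69% as gaining it. No losing region overlapped one of the 2081 regions gaining H3K27ac, whereas 739 of the gaining H3K4me3 regions did. The share with the same window was 46.7% within 1 kb, 50.4% at 1 to 10 kb and 53.2% beyond. Both lists were drawn from windows on accessible sites in the same cell type and treatment, so they share their candidate windows.

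At C1qc the H3K27ac window had 362.9, 179.2 and 391.6 normalised tags in 3 PBS libraries and 114.8 and 64.8 in 2 MSUc libraries, a log2 change of -1.86. At Rassf2 it had 324.8, 316.7 and 405.1 against 142.8 and 123.9 (-1.45), and at the Flt3 intron 108.9, 80.5 and 99.0 against 39.2 and 11.2 (-2.03). Both MSUc columns were below the 3 PBS columns in these windows, as they were at Apoe (133.0, 113.0 and 106.2 against 43.4 and 26.8, -1.81) and Mxd4 (31.4, 45.8 and 66.6 against 9.80 and 22.3, -1.60). Over the 430 shared windows the median change was -1.36 for H3K4me3 and -1.29 for H3K27ac, and it was -1.22 for H3K4me3 elsewhere. Across these windows, which are not independent and are chosen for both losses, Pearson's r of the 2 changes was 0.39 and Spearman's rho 0.37.

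Losing regions over 10 kb from a start overlapped sites of reduced DOT1L, the methyltransferase that marks transcribed genes and some enhancers. In all, 142 (16.4%) overlapped 1 or more of the 4208 reduced DOT1L peaks, of which these regions touched 2.90%: 95 of 222 beyond 10 kb (42.8%), 47 of 282 at 1 to 10 kb and 0 of 364 within 1 kb. Every deposited DOT1L, TFE3 and TFEB peak lay over 3 kb from a start, so promoter windows could hardly meet one. Bckdha, Cacna1d and Tex2 were among the genes of the largest losses with such a peak, and Pecam1 and Strap had one too. Of the gaining H3K4me3 regions, 5 met a reduced DOT1L peak and 523 a gained one, against 1 of the losing regions. No losing region met a gained peak of TFEB, a lysosomal transcription factor, against 621 gaining ones, and 36 (4.15%) met one of its relative TFE3, against 459 (39.3%). The TFE3 windows of largest loss lay at Grk2, Nav2, Cotl1, Atp13a2 and Mis18a. When the overlap had to reach 50% of the region, the counts for DOT1L and TFE3 were 0, since those peaks are shorter than the windows, and 475 regions still met H3K27ac loss.

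The authors' lists of accessible sites for each treatment were set beside the windows. Of the losing regions 514 (59.2%) met a site listed for both treatments, 279 (32.1%) one listed for PBS and not for MSUc, and 20 (2.30%) one listed for MSUc and not for PBS. For the gaining regions the last 2 shares were 7.79% and 13.0%. These lists have no replicate values here, so no test was made.

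Expression was tested in libraries that the choice of regions did not use. Levels are in TPM, changes are on the log2(TPM + 1) scale with SE, and a gene rose or fell where its Benjamini-Hochberg adjusted p in limma, over all genes tested in that experiment, was under 0.05. At 5 hours, the time of the H3K4me3 libraries, 446 of the 511 nearest genes reached the 1 TPM needed for a test, and 322 of them fell (72.2%), against a background of 32.9% of all genes tested. A further 15 rose (9 without PBS replicate 1), against a background of 16.4%. The median change was -0.94 for the nearest genes and -0.23 for all genes. Of genes nearest to gaining regions, 313 of 569 rose and 53 fell.

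The nearest genes were expressed more highly than most, 33.5 TPM against 15.2 TPM as the median of PBS means over genes tested in all 8 experiments. Among genes of at least 10 TPM with PBS at 5 hours, 273 of 352 nearest genes fell (77.6%), against 39.0% of all such genes. The counts depend on how libraries are scaled, and the deposited values summed to 528079 to 569594 a library. After median-of-ratios scaling of the libraries 268 nearest genes fell and 24 rose. The share of falls among the calls of all genes went from 66.7% to 44.8%, while among the nearest genes it went from 95.5% to 91.8%.

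**Figure D2:**
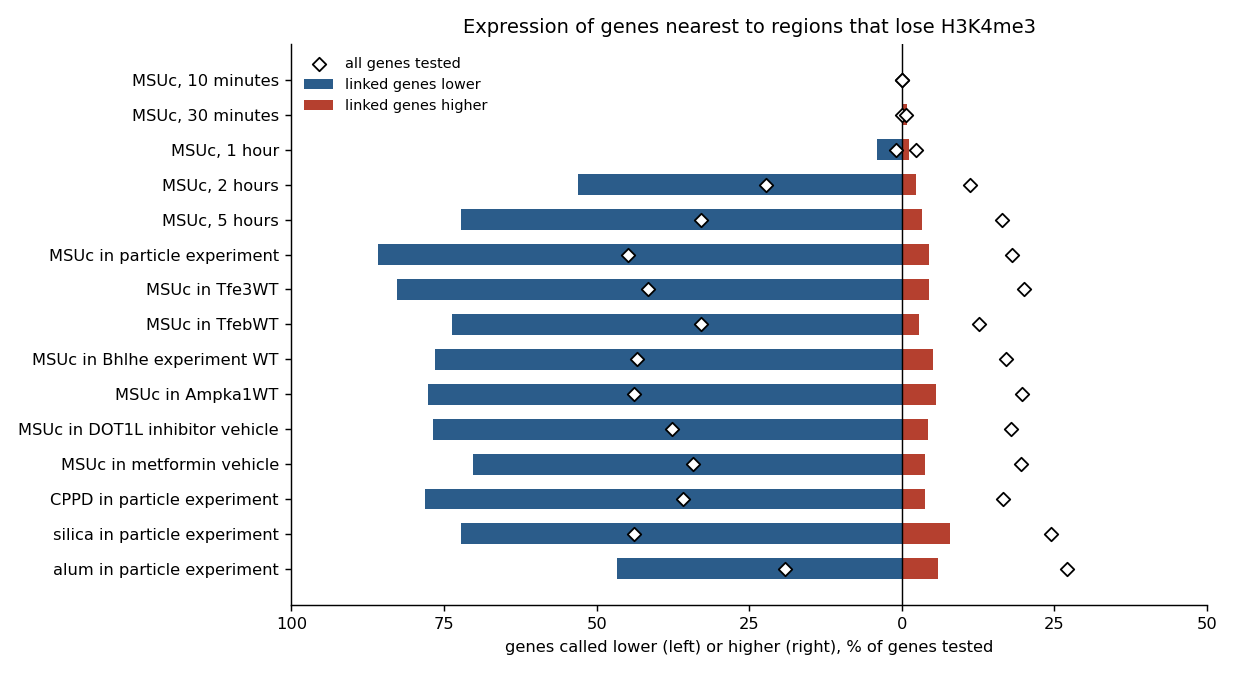
Share of tested genes called lower (left, blue) or higher (right, red) among genes nearest to losing regions, for 15 comparisons, with open diamonds for all genes tested. At 5 hours 72.2% of the nearest genes are called lower against 32.9% of all genes, and bars to the left pass the diamonds from 1 hour on.

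The fall was most frequent where the region lay on the start site. At 5 hours 192 of 239 genes with a region within 1 kb fell (80.3%, median -1.04), 85 of 124 with the nearest region 1 to 10 kb away (68.5%, median -0.88), and 45 of 83 with regions beyond 10 kb (54.2%, median -0.51, with 8 rising). At 2 hours the shares were 63.6%, 50.0% and 27.7%, of which the last was near the 22.3% of all genes tested. Of genes whose window also lost H3K27ac, 174 of 220 fell (79.1%), and of those with no such overlap 138 of 212 (65.1%). The shares were 54 of 77 with a reduced DOT1L peak and 15 of 26 with a gained TFE3 peak. Differences between these subsets were not tested.

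Genes with deeper losses of the mark had larger median falls of expression, with a wide spread, but the share that fell did not follow that order. Among the 239 genes with a promoter region, the median log2 change was -1.45 for the 60 with a loss of 1.5 or more, -1.18 for the 72 with 1.25 to 1.5 and -0.89 for the 107 with 1 to 1.25. The shares that fell were 83.3%, 87.5% and 73.8%. Pearson's r was 0.27 and Spearman's rho 0.29 across these genes, which are not independent replicates and all share the same libraries. The C1q genes and Apoe lost more of the mark than of their transcript, and Sesn1 and Ypel3 the reverse in log2 units.

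**Figure D3:**
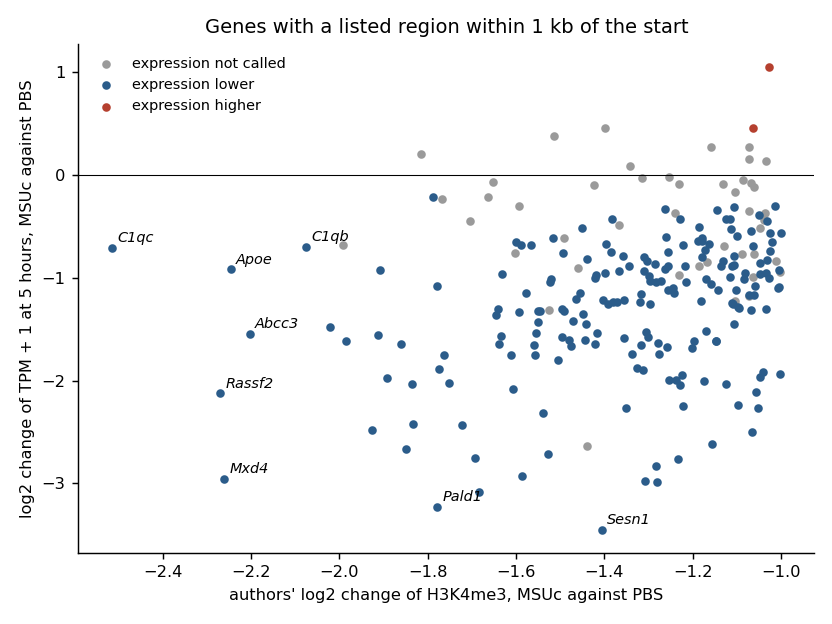
Authors' log2 change of H3K4me3 (horizontal) against the log2 change of expression at 5 hours (vertical) for the 239 tested genes with a region within 1 kb of the start, each point a gene coloured by its expression call. Points spread widely at each loss of the mark (Pearson's r 0.27), and 192 lie among the falls.

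At C1qc expression went from 2907 and 2473 TPM with PBS to 1429 and 1888 TPM with MSUc at 5 hours, a change of -0.71 ± 0.19 (adjusted p = 0.00868, limma, 2 libraries a group). C1qb had 4189 and 3676 against 2084 and 2819 TPM (-0.69 ± 0.18). C1qa changed by -0.93 ± 0.27. The groups did not overlap, and the transcripts stayed abundant. Apoe had 4712 and 4564 against 2352 and 2565 TPM (-0.92 ± 0.13, adjusted p = 6.64e-05, limma). Rassf2 had 113 and 111 against 21.3 and 29.2 TPM (-2.12 ± 0.13) and Mxd4 71.0 and 76.8 against 8.63 and 8.67 TPM (-2.96 ± 0.13, adjusted p = 7.47e-09, limma). In log2 units the falls of these regulators of growth were larger than those of the secreted proteins. Abcc3 (-1.54 ± 0.21), Bckdha (-1.26 ± 0.13) and Cacna1d (-1.55 ± 0.12) also fell.

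Several regions of large loss had no falling neighbour. Zfp36l2, which destabilises mRNA, had 292 and 339 TPM with PBS and 297 and 277 with MSUc (-0.13 ± 0.16, adjusted p = 0.533, limma), and Tex2 changed by 0.20 ± 0.13 (adjusted p = 0.232). Igfbp4 had 88.4 and 214 against 50.9 and 21.2 TPM, and its PBS libraries differed so much that -2.03 ± 0.88 did not pass (adjusted p = 0.0723, limma). Flt3 and Zfp541 were under 1 TPM and were not tested. In all 65 nearest genes were not tested at 5 hours.

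Among the 8 MSUc experiments the same direction recurred at many of these genes. Tested in all 8 were 418, of which 230 fell in every one (55.02%), against a background of 16.8%, and 4 rose in every one, against 7.72%. After median-of-ratios scaling 151 fell and 8 rose in every one. The background over all 8 was not counted with that scaling, so the shares above do not apply to these counts. Called in none were 6, and 23 were called both ways in different experiments. In the single experiments the falling counts were 381 of 444 in the particle experiment (background 44.9%), 369 of 446 in the Tfe3 wild-type (41.6%), 319 of 433 in the Tfeb wild-type (32.9%), 334 of 437 in the Bhlhe wild-type (43.4%), 343 of 442 in the Ampka1 wild-type (43.9%), 337 of 439 with the vehicle of SGC0946 (37.7%) and 302 of 430 with the vehicle of metformin (34.3%). The rising counts in these 7 were 20, 20, 12, 22, 25, 19 and 16, against backgrounds of 18.1%, 20%, 12.6%, 17.1%, 19.7%, 17.8% and 19.6%. For the Tfeb wild-type, replicate 3 of MSUc has PBS in its treatment field, and counted as PBS it left 0 calls in either direction by limma, so that experiment and the count over all 8 rest on its title. Without that library 304 of 433 fell and 12 rose, and with it the 3 MSUc libraries had Tfeb at 25.5 to 30.7 TPM against 43.7 to 44.4 with PBS. The Tfe3 wild-type also rests on titles, since the genotype field of its libraries reads Tfe3KO.

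Of the 10 genes with the largest mean fall over the 8 experiments, Bmf, a BH3-only protein that starts apoptosis, had 23.0 and 21.6 TPM with PBS and 1.83 and 1.68 with MSUc at 5 hours (-3.08 ± 0.12, adjusted p = 4.39e-09, limma), with a mean change of -3.10 over the 8 (-3.68 to -2.56). Its window 1371 bp before the start had 36.9 and 43.4 against 13.0 and 7.12 tags. Sesn1, a sestrin that restrains mTORC1, had 79.1 and 117 against 9.12 and 6.77 TPM (-3.45 ± 0.36) and 62.8 and 72.0 against 31.6 and 19.3 tags. No MSUc library reached the lowest PBS library for either gene. Pald1, a phosphatase-like protein, had 36.7 and 43.1 against 4.24 and 2.61 TPM, and Ypel3, a growth-suppressive gene, 299.6 and 312 against 42.0 and 46.2 TPM (-2.77 ± 0.10). Tnfaip8l2, a negative regulator of immune signalling, had 163 and 184 against 29.9 and 30.6 TPM (-2.48 ± 0.13). Abhd15, Zfyve28, Zfp395, Mxd4 and Enc1 complete the 10, with mean changes of -2.94, -2.67, -2.66, -2.55 and -2.52.

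Against the direction of the mark, 4 genes rose in all 8 experiments. Sgk1, a kinase regulated by mTORC2, had 175 and 140.0 TPM with PBS and 319 and 331 with MSUc at 5 hours (1.05 ± 0.21, adjusted p = 0.0012, limma), a mean of 1.16 over the 8. Its window 801 bp before the start lost the mark from 101.2 and 94.1 to 53.1 and 43.8 tags. Baz1a, a subunit of chromatin remodellers, had 8.40 and 8.31 against 18.4 and 14.6 TPM, with a region 33206 bp from its start. Zfp52 and Strap had means of 0.81 and 0.46.

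Over the time course the nearest genes changed late. At 10 minutes 1 rose and 0 fell of 446 by limma, against backgrounds of 0.0486% and 0.0081%, with 9 genes at an unadjusted p under 0.05. At 30 minutes 4 rose and 0 fell (backgrounds 0.68% and 0%, 16 at an unadjusted p under 0.05), but 2 to 3 rose with any 1 of the 4 libraries left out and 0 with only these 4 in the fit. At 1 hour 18 fell and 5 rose (backgrounds 0.947% and 2.33%), and at 2 hours 237 fell and 10 rose (22.3% and 11.2%). The median change went from -0.12 at 1 hour to -0.53 at 2 hours and -0.94 at 5 hours, against -0.05, -0.15 and -0.23 for all genes. The 1 hour count of falls depended on the libraries in the fit, for a reason that was not tested. It was smaller with any 1 of the 4 libraries left out, and with only the 4 libraries of that time in the fit 2 genes fell.

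Bmf was among the first to fall. It had 23.3 and 19.6 TPM with PBS and 6.60 and 7.90 with MSUc at 1 hour (-1.45 ± 0.12, adjusted p = 1.28e-05, limma), and 1.39 and 1.59 TPM with MSUc at 2 hours. Txnip, which binds thioredoxin and curbs glucose uptake, had changed by -1.15 ± 0.22 at 1 hour, Abhd15 by -0.95, Enc1 by -0.74 and Tnfaip8l2 by -0.66 ± 0.13. Rassf2 had 113 and 108 against 93.1 and 92.4 TPM at 1 hour (adjusted p = 0.456) and 109.6 and 102 against 38.4 and 49.4 at 2 hours (-1.26 ± 0.13). Mxd4 passed at 2 hours (-1.48 ± 0.13) and C1qc at 5 hours, having changed by -0.43 ± 0.19 at 2 hours (adjusted p = 0.112, limma). H3K4me3 was given at 5 hours alone, so the order of the 2 losses cannot be told from these data.

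**Figure D4:**
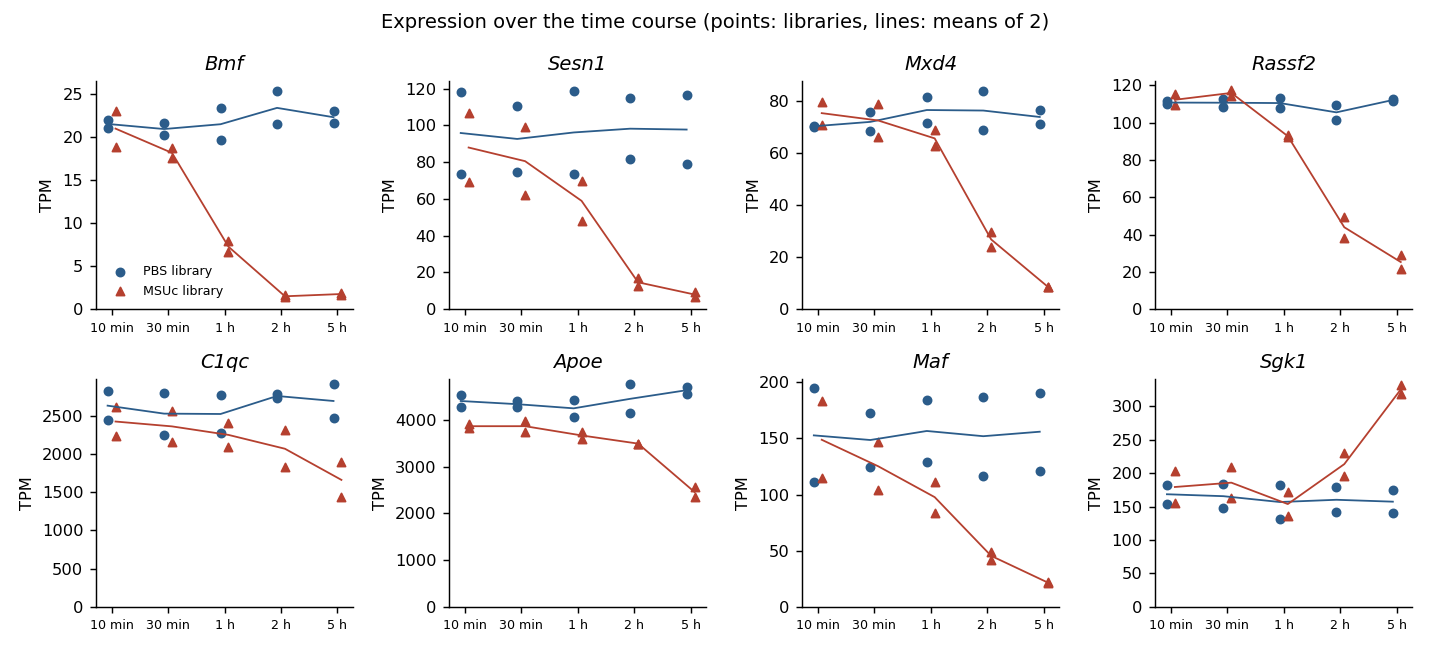
TPM of 8 named genes in each library of the time course (points; circles PBS, triangles MSUc; lines join the means of 2 libraries), with times as evenly spaced categories that are not to scale. Bmf has separated from PBS at 1 hour, while C1qc passed the test at 5 hours and Sgk1 is higher with MSUc at 5 hours.

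By function, the members of a macrophage identity list nearest to losing regions all fell at 5 hours. They were 7 of a list of 24 (among them C1qa, C1qb, C1qc, Maf, Mef2a and Mef2c), and the 7 falls stood beside 12 falls and 4 rises in the whole list. Of the separate list of 10 macrophage markers, 2 were nearest to losing regions, and 0 of these fell or rose. That list had 4 falls and 0 rises. Of all tested nearest genes 72.2% fell, and whether members of any list fell more often than other nearest genes was not tested. Maf, a transcription factor of resident macrophages, had 121 and 191 TPM with PBS and 21.1 and 22.2 with MSUc (-2.76 ± 0.35), and its window 990 bp after the start 196.1 and 163.4 against 55.8 and 57.0 tags. Mef2c, a MADS-box factor, fell by 2.04 ± 0.27 and Mef2a by 0.78 ± 0.10. The 10 macrophage markers summed to 18406 and 25880.3 TPM with PBS and 13585 and 15283 with MSUc at 5 hours; fewer cells and less RNA per cell cannot be told apart in bulk samples, and the part of this shift in the falls was not tested.

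Receptors that guide monocytes and macrophages were 8 of the 25 in their list, and 6 of the 8 fell, beside 14 falls and 4 rises in the whole list. As a share this was near the 72.2% of all tested nearest genes that fell. Ccr2, the receptor that draws monocytes to inflamed tissue, had 71.6 and 103 TPM with PBS and 14.1 and 12.5 with MSUc (-2.61 ± 0.24), with a window 1226 bp after its start at 45.5 and 74.8 against 24.2 and 21.4 tags. The integrins Itga4, Itga6 and Itgal fell by 2.26 ± 0.36, 2.08 ± 0.35 and 1.48 ± 0.35, the nucleotide receptor P2ry6 by 1.09 ± 0.15 and the complement receptor C3ar1 by 0.50 ± 0.12. The fractalkine receptor Cx3cr1 had 39.5 and 154 against 23.0 and 5.75 TPM and did not pass (adjusted p = 0.093, limma), nor did Cxcr4 (0.0516).

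Toll-like receptor genes were represented by 5 of a list of 25, of which 4 fell, beside 17 falls and 3 rises in the list and 72.2% falls among all tested nearest genes. Unc93b1, which carries endosomal Toll-like receptors to their compartment, had 675 and 689 TPM with PBS and 326 and 369 with MSUc (-0.97 ± 0.08), with a run of losing regions over its start. Tifa and Tlr9 each fell by 1.45 (SE 0.18 and 0.39), and the adaptor Ticam2 by 0.64 ± 0.11.

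All 4 genes of the mTORC1 restraint and apoptosis list with a losing region fell (Sesn1, Bmf, Txnip and Bcl2l11, the last by 0.68 ± 0.10), as did 72.2% of all tested nearest genes. The whole list of 22 tested split into 8 falls and 9 rises. Among lysosomal genes with TFEB motifs the sulfamidase Sgsh fell by 2.25 ± 0.23 and the protease gene Ctsd had 10838 and 8296 against 6657 and 8512 TPM (adjusted p = 0.347, limma), in a list with 7 falls and 12 rises of 40. The scavenger receptor Stab1 fell by 1.47 ± 0.29 and the cell cycle inhibitor Rb1 by 0.94 ± 0.18. Of the 26 inflammatory cytokines and mediators 0 had a losing region, and that list had 19 rises and 0 falls of 23 tested. Since 511 of all 24940 genes were nearest to a losing region, a count of 0 in so short a list says little. The interferon-stimulated list had 1 losing gene, Ifitm3, which did not pass.

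Enzymes and readers of the mark itself were nearest to a few of these regions, as were 511 of the 24940 genes in the tables. Of 18 genes of H3K4 methyltransferase complexes 1 had a losing region, Pagr1a, an MLL3 and MLL4 subunit, with 22.7 and 25.7 TPM against 15.3 and 11.3 (-0.83 ± 0.20, adjusted p = 0.00422, limma), and the list had 6 falls and 1 rise. Of 8 demethylases 1 did, Kdm2b, a JmjC-domain protein that binds CpG islands, with 9.14 and 10.1 against 3.84 and 3.17 TPM (-1.24 ± 0.17), and the list had 3 falls. Of 16 readers 3 did, and Ing1 and Ing2 fell by 0.75 ± 0.11 and 0.68 ± 0.14 while Phf13 changed by 0.27 ± 0.13 (adjusted p = 0.0962). Over the 8 experiments Setd1b, Rbbp5, Pagr1a, Kdm2b, Ing1, Ing4 and Pygo2 fell in every one and the reader Chd1 rose in every one.

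The other particles were tested on these genes in the particle experiment, in which all 4 comparisons share the 3 PBS libraries. With MSUc 381 of 444 nearest genes fell, with CPPD 347 (78.2%, background 35.8%), with silica 321 (72.3%, background 43.9%) and with alum 207 (46.6%, background 19.2%). The numbers rising were 20, 17, 35 and 26, against 18.1%, 16.6%, 24.4% and 27.1% of all genes. The median changes were -1.02, -0.80, -1.12 and -0.40, against -0.29, -0.20, -0.25 and 0.08 for all genes. Without alum replicate 1 or 2 the rises with alum were 17. Silica and alum each had 2 listed libraries matched to values. A further silica column of values matched no listed sample and was not used, and a further alum library that the labels list was not analysed here. Macrophage markers summed to 28809 to 31637 TPM with PBS, 19954 to 21673 with MSUc, 20720 to 23093 with CPPD, 35632 to 40217 with silica and 17109 to 17418 with alum. Neutrophil markers summed to 40.7 to 94.6 TPM with PBS, 44.8 to 103 with MSUc, 30.3 to 57.6 with CPPD, 232 to 333 with silica and 36.7 to 64.1 with alum. The part of these shifts in the falls was not tested. H3K4me3 was measured with MSUc alone.

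Bmf had 16.7, 16.0 and 19.5 TPM with PBS, 1.03, 0.779 and 1.15 with MSUc, 1.79, 1.76 and 2.63 with CPPD, 1.01 and 0.677 with silica and 3.83 and 3.27 with alum, and fell with each (-3.21, -2.60, -3.32 and -2.02). Sesn1 had 103, 103 and 109.8 TPM with PBS, 8.50, 7.84 and 9.73 with MSUc, 22.9, 15.3 and 23.4 with CPPD, 48.9 and 40.1 with silica and 46.1 and 44.4 with alum. Its values with silica and alum lay between those with the crystals and those with PBS. Rassf2 had 161, 157 and 170.1 TPM with PBS and 31.2, 26.1 and 26.4 with MSUc, against 115 and 94.6 with alum (-0.64, adjusted p = 0.0123, limma). C1qc was lowest with silica, at 978 and 666 TPM against 1317 to 1477 with MSUc and 2346 to 2677 with PBS.

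Whether a perturbation changes the response of these genes to MSUc was tested as an interaction, the difference between the perturbed and the control response. With metformin most calls went 1 way: the response was higher (a smaller fall or a larger rise) for 138 of 430 nearest genes (32.1%), against a background of 7.52%, and lower for 3, against 4.72%. The median response was -0.34 with metformin and -0.84 with vehicle, and it was higher with metformin for 377 of 430 genes (87.7%), called or not, against 58.1% of all genes. Levels with PBS were themselves lower with metformin, by a median of -0.35 over these genes against 0.08 over all genes, while with MSUc the median difference was 0.05.

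Itgal, the alpha chain of the integrin LFA-1, had 60.6, 58.2 and 63.7 TPM with vehicle and PBS, 19.7, 19.4 and 20.1 with vehicle and MSUc, 4.22, 3.85 and 4.10 with metformin and PBS, and 4.04, 4.12 and 3.38 with metformin and MSUc (interaction 1.51 ± 0.14, adjusted p = 5.7e-05, limma). Cx3cr1 had 11.2, 16.2 and 13.1 TPM with vehicle and PBS and at most 0.25 with metformin and PBS (2.94 ± 0.28). With metformin both genes were already low without crystals. Sesn1 had 28.9, 26.7 and 28.5, then 5.52, 6.58 and 5.26 TPM with vehicle, and 9.62, 9.74 and 10.1, then 8.20, 7.34 and 10.8 with metformin (1.94 ± 0.19). Rassf2 had 85.9, 82.8 and 73.9, then 9.13, 8.88 and 10.6 with vehicle, and 29.97, 34.1 and 32.8, then 10.1, 14.03 and 10.9 with metformin (1.56 ± 0.17). Rassf2 thus reached a like level with MSUc from a lower one with PBS. Ypel3 had 46.5, 50.8 and 34.4 TPM with vehicle and MSUc against 114, 105 and 90.2 with metformin and MSUc (1.79 ± 0.20), so its level with crystals was also higher. Itgal, Cx3cr1, P2ry6, Tifa and the other genes of interactions were named after their values were seen.

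Marker sums moved with metformin. The macrophage markers summed to 23682 to 26423 TPM with vehicle and PBS, 19762 to 22674 with vehicle and MSUc, 11806 to 13363 with metformin and PBS and 13259.7 to 15763 with metformin and MSUc, and the 5 fibroblast markers to 173 to 360.1, 477 to 608, 69.6 to 215 and 156 to 341 TPM. The part of these shifts in the response of the nearest genes was not tested. After median-of-ratios scaling 115 of 429 responses were higher and 4 lower, against 676 and 867 of all 12463 genes tested.

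**Figure D5:**
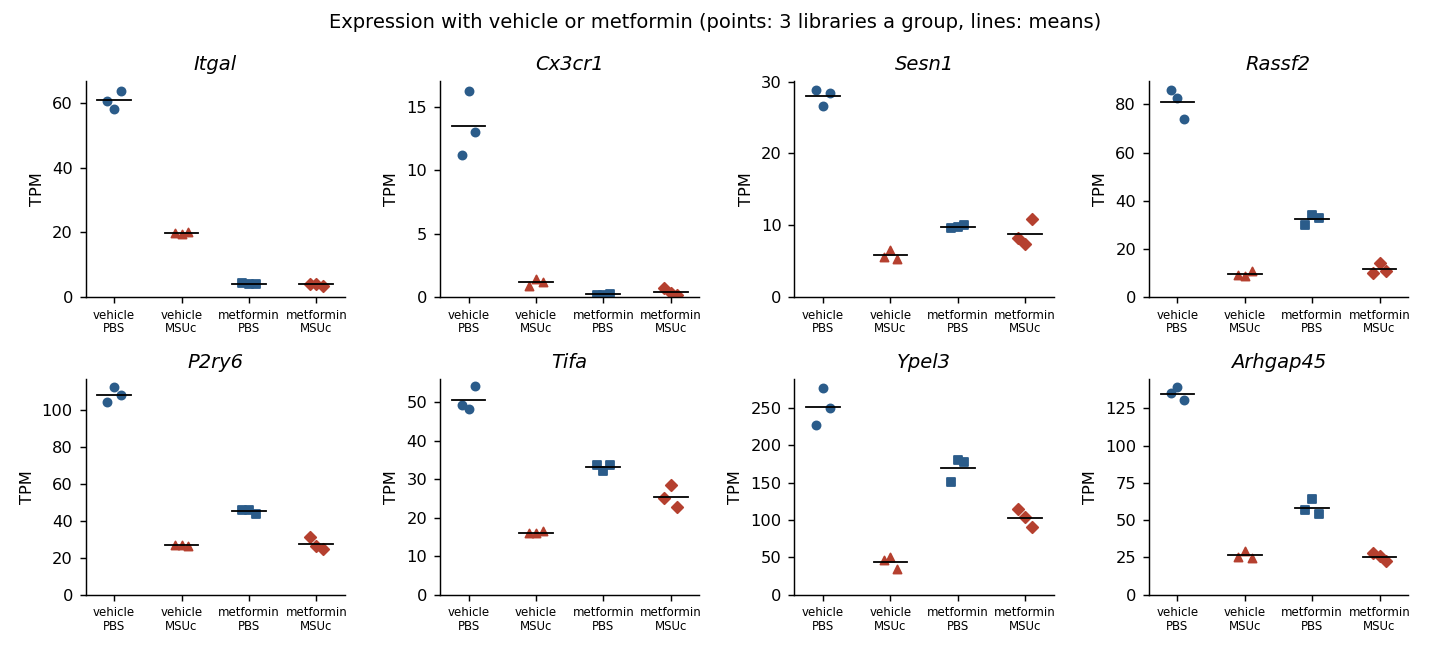
TPM of 8 nearest genes in each of 3 libraries a group with vehicle or metformin and PBS or MSUc (points; lines are means). Itgal is at 58.2 to 63.7 TPM with vehicle and PBS and at 3.38 to 4.22 TPM in both metformin groups, whereas Ypel3 with MSUc is higher with metformin than with vehicle.

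In the libraries labelled Ampka1KO the response differed for 246 of 442 nearest genes, higher for 170 and lower for 76, but 50.6% of all genes differed too (34.7% higher, 15.9% lower). After median-of-ratios scaling 103 were higher and 121 lower, so the direction of the balance depends on the scaling. Tbc1d9 had 22.5, 23.5 and 23.6, then 64.8, 71.1 and 61.8 TPM in wild-type, and 46.0, 36.5 and 41.9, then 18.6, 21.9 and 20.5 in Ampka1KO (-2.45 ± 0.14, adjusted p = 3.96e-07, limma). Enc1 went the other way, 13.6, 9.25 and 8.12 TPM with MSUc in wild-type against 64.5, 65.0 and 63.6 in Ampka1KO (2.47 ± 0.19). Fibroblast markers summed to 77.3 to 143 TPM with PBS and 66.8 to 217 with MSUc in wild-type, but 834 to 1359 and 2369 to 2979.5 in Ampka1KO, macrophage markers to 25178 to 27752 TPM with PBS and 8546 to 10676 with MSUc in Ampka1KO, and their part in these differences was not tested.

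The other perturbations left the response of nearly all these genes without a call. In the libraries labelled Tfe3KO it differed for 14 of 446 (background 1.73%), in Tfeb-Tg for 1 of 433 (0.1%), in those labelled B41KO for 1 of 437 (0.132%), and in B40KO and with SGC0946 for 0 of 437 and 0 of 439 by limma (0.00824% and 0.0325%), with 24 and 54 at an unadjusted p under 0.05. Without Tfe3KO PBS replicate 1 the Tfe3KO count was 25, and without Tfe3KO MSUc replicate 1, Tfe3KO PBS replicate 2 or 3, or Tfe3WT MSUc replicate 2 it was 9. Neutrophil markers summed to 232 to 426 TPM with PBS and 388 to 531 with MSUc in the Tfe3 wild-type, and to 157 to 303 and 218 to 330 in Tfe3KO, and their part in these calls was not tested. The Tfeb-Tg call was lost without any 1 of 9 of its 11 libraries, and the B41KO call without any 1 of 8. Sgk1 was called in Tfe3KO and Tfeb-Tg in opposite directions. It had 85.2, 81.8 and 84.0 TPM with PBS and 243, 241 and 246 with MSUc in the Tfe3 wild-type, and 96.4, 94.9 and 106, then 199, 142 and 173 in those labelled Tfe3KO (-0.76 ± 0.15, adjusted p = 0.0112, limma). In the Tfeb wild-type it had 104 and 107, then 205, 192 and 189 TPM, and 93.2, 85.8 and 101, then 306, 296 and 273 in Tfeb-Tg (0.76 ± 0.11, adjusted p = 0.0304). The lysosomal phospholipase Pla2g15 had 124, 111 and 112 TPM with MSUc in wild-type against 60.1, 69.0 and 73.4 in those labelled Tfe3KO (-0.93 ± 0.15).

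SGC0946 changed 5 nearest genes in PBS (background 0.673%), but 0 with the replicate block and 0 to 2 with any 1 of the 5 libraries left out, and 100 of 439 with MSUc (43 higher, 57 lower; background 16.6%). Apoe had 3938, 4658 and 5241 TPM with vehicle and PBS, 6993 and 8459 with SGC0946 and PBS, 1199.6, 1092 and 1126 with vehicle and MSUc and 2806, 2304 and 2393 with SGC0946 and MSUc. It was higher with the inhibitor in both (0.75 ± 0.12 and 1.13 ± 0.11, adjusted p = 0.0299 and 0.00027, limma), but the call in PBS was lost with the replicate block, and its interaction did not pass (0.38 ± 0.16, adjusted p = 0.421). The count with MSUc depends on libraries 1 and 3 of SGC0946 with MSUc, without which 60 and 61 genes were called.

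Groups held 2 or 3 libraries, and nothing in the labels says that RNA libraries of a group came from separate mice, so the p-values measure the spread between these libraries. H3K4me3 had no values outside the listed regions, with other particles or in perturbed cells.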

How the data were processed

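ChIP-seq and RNA-seq of cultured mouse bone marrow-derived macrophages were used as deposited. The authors counted H3K4me3 and H3K27ac tags in windows on accessible sites of mm10 with HOMER and deposited a scaled signal with the log2 change, p-value and adjusted p-value of their own test, per the file headers. DOT1L, TFE3 and TFEB peaks are the authors' lists of changed peaks, annotated by HOMER, per the file headers. STAR, HOMER and mm10 are named without versions in the submitters' processing notes. How peaks were called is not given in the sources used here. The expression tables name no unit, and the deposited values behave as TPM, of which 1 transcript per gene was kept. Columns of values that match no listed sample, 6 in number, were not used.

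Libraries were grouped by title. For 12 libraries whose title is Tfe3WT the genotype reads Tfe3KO, and replicate 3 of TfebWT with MSUc has PBS as treatment. Since the tables hold TPM and not counts, limma 3.58.1, run in R 4.3.3 with a mean-variance trend and without robust weighting, was fitted on log2(TPM + 1) to all groups of an experiment. Genes needed at least 1 TPM in a number of libraries equal to the smallest group. Tests were two-sided, with Benjamini-Hochberg adjustment over all genes. Responses were compared between genotypes or drugs as interactions. Each region was linked to the authors' nearest gene. Overlaps of at least 1 bp were counted with bedtools 2.31.1. Promoters and motif letters came from RefSeq on GRCm38.p6. Other steps used Python 3.11.15, pandas 2.3.3, numpy 2.4.6 and matplotlib 3.10.9. The fitting code was tested on simulated data.

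The text names the 12 regions of largest and the 3 of smallest loss (1 a gene, at least 20 tags with PBS in the former, Gm and Rik symbols passed over), the genes of largest mean fall or rise among those called in all 8 experiments with a mean of at least 5 TPM, up to 4 linked members of each gene list, the 6 genes with most regions, up to 5 regions that overlap each other list, and the H3K4me3 writers, erasers and readers called in all 8. Genes named from interactions, early time points and neighbours of these were chosen after their values were seen. Some items that the rule would name are not reported here. The regions and gene lists were chosen with earlier results of these data known. Replicate numbers were not taken to pair libraries: in the particle experiment same-numbered PBS and MSUc libraries correlated by 0.136, 0.1 and 0.125 in their deviations from group means, and no experiment had 3 pairs above 0.1 throughout. Alternatives tried were the pseudocount (0.25), no filter, median-of-ratios scaling, the replicate number as a block, the compared groups alone, leaving out each library, stricter region sets and a 50% overlap.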

Additional observations from a re-analysis of the deposited data

Results flagged for a closer look

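The response to MSUc of genes nearest to regions losing H3K4me3 differed between a perturbed group and its control, by limma's interaction test with Benjamini-Hochberg adjustment over all genes, in 5 of the 7 perturbations. With metformin 141 of 430 genes differed, 138 higher and 3 lower, beside 7.52% higher and 4.72% lower of all genes. Genes with a mean under 5 TPM or a symbol of the Gm or Rik type were then passed over. The 8 of smallest p among the rest were Cx3cr1 (2.94), Sesn1 (1.94), Rassf2 (1.56), Itgal (1.51), Slc43a2 (1.33), P2ry6 (1.28), Tifa (1.21) and Xylt2 (1.13). Each value is the log2 difference of the response from vehicle. The log2 response of all 8 was higher with metformin, and all 3 libraries of vehicle with PBS were above all 3 of metformin with PBS for Itgal, Cx3cr1, Sesn1, Rassf2, P2ry6 and Tifa.

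In Ampka1KO 246 of 442 genes differed, beside 50.6% of all genes, and the balance of 170 higher and 76 lower turned to 103 and 121 after median-of-ratios scaling. The response was lower for Tbc1d9 (-2.45), Adap2 (-2.29) and Dab2 (-1.80), and higher for Enc1 (2.47), Ivns1abp (2.16), Trp53inp1 (2.11) and Btg2 (1.74). Dab2, an endocytic adaptor, had 42.4, 41.1 and 44.7 TPM with PBS and 83.6, 76.2 and 79.8 with MSUc in wild-type, and 92.4, 85.0 and 77.2, then 43.8, 45.8 and 43.6 in Ampka1KO. Tbc1d9 and Dab2 thus moved in opposite directions in the libraries of the 2 genotypes.

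In the libraries labelled Tfe3KO 14 of 446 genes differed, beside 1.73% of all genes. Among them were Pla2g15 (-0.93), Rnf150 (-0.81), Gng2 (-0.81), Sgk1 (-0.76) and Tex2 (-0.51) with a lower response, and Midn (0.57), Zbtb7b (0.46) and Clic1 (0.40) with a higher one. This count went from 9 to 25 when single libraries were left out. In Tfeb-Tg 1 of 433 genes differed, Sgk1 (0.76), beside 0.1% of all genes. In B41KO 1 of 437 did, Enc1 (0.80), beside 0.132% of all genes. Enc1 had 23.1 and 23.4 TPM with PBS in B41KO against 44.8 and 43.1 in wild-type, and 5.04 to 5.76 TPM with MSUc in both. The Enc1 call was lost when any of the 8 libraries was left out.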

How the results depend on the processing

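The falling counts of the nearest genes at 2 and 5 hours and in the other 7 experiments stayed within 1.5 times under the pseudocount, filter, scaling and block alternatives. Exceptions were 147 falls at 2 hours with only the compared groups in the fit and 0 falls and 0 rises in TfebWT with replicate 3 counted as PBS. With a pseudocount of 0.25, 0 rose at 10 minutes and 0 responses differed in B41KO. With no filter these were 0 in B41KO and 2 with SGC0946. With median-of-ratios scaling the rising counts were 17 at 2 hours, 24 at 5 hours, 32 in Tfe3WT, 26 in TfebWT, 36 in the Bhlhe wild-type, 49 in Ampka1WT, 26 with CPPD and 67 with silica, and 9 responses differed in Tfe3KO and 0 in B41KO. With the replicate block 0 differed in Tfeb-Tg, 0 in B41KO and 0 changed with SGC0946 in PBS, and the other 36 of 39 counts stayed within 1.5 times, 324 falling at 5 hours. In the time course same-numbered libraries deviated oppositely from 30 minutes on, and with the numbers crossed 334 fell at 5 hours and 251 at 2 hours, with 10 of 10 counts within 1.5 times. With only the compared groups in the fit 0 rose at 10 minutes, 0 at 30 minutes, 1 at 1 hour and 3 at 2 hours, 2 fell at 1 hour, 5 responses differed in Tfe3KO and 0 in B41KO, and SGC0946 changed 0 genes in PBS and 62 with MSUc. The cause of these shifts was not tested, and some of these fits held fewer libraries. Leaving out single libraries gave 284 to 304 falls at 5 hours, 187 to 196 at 2 hours, 6 to 8 at 1 hour and 0 to 1 at 10 minutes. Rises were 0 to 2 at 10 minutes, 2 to 3 at 30 minutes, 3 to 5 at 1 hour, 6 to 10 at 2 hours, 9 to 13 at 5 hours (9 without PBS replicate 1) and 17 to 26 with alum. Differing responses were 9 to 25 in Tfe3KO, 0 to 1 in Tfeb-Tg, 0 to 1 in B40KO, 0 to 0 in B41KO, 213 to 260 in Ampka1KO, 0 to 1 with SGC0946 and 108 to 174 with metformin, and SGC0946 changed 0 to 2 genes in PBS and 60 to 104 with MSUc. The median H3K4me3 change was -1.26 for regions within 1 kb and -1.68 for those past 1.5. At 50% overlap the counts for reduced DOT1L, gained DOT1L and gained TFE3 peaks were 0, 0 and 0. With 2 libraries a group, differences below the spread between libraries, and any change of the mark outside the listed regions, could not be seen.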
